A study of Mus musculus with 6 samples.

Results

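The genes described are 10 enzymes and enzyme subunits that break down lysine and the branched-chain amino acids (leucine, isoleucine and valine), measured by RNA-seq in whole mouse liver. They were chosen by gene symbol, with earlier results of these data known: *Aass* and *Gcdh* of lysine breakdown, and *Bcat1*, *Bcat2*, *Bckdha*, *Bckdhb*, *Dbt*, *Ivd*, *Mccc1* and *Hibadh* of branched-chain amino acid breakdown. Each symbol was found, giving 10 of 25403 listed genes, and 9 of the 10 were among the 14496 genes with enough counts to test. The study compared 3 livers labelled WT (wild-type C57BL6/J) with 3 livers labelled *Themis*-KO, from mice that lack the T cell development gene *Themis* in the whole body, T cells included. The labels give a strain name only for the WT livers. All 6 mice had eaten a diet that induces metabolic dysfunction-associated steatohepatitis (MASH), in which fat gave 40 kcal% and fructose gave 20 kcal%, with cholesterol at 2%, for 3 months from 10 to 12 weeks of age.

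The branched-chain amino acids are first transaminated to their keto acids, by the cytosolic enzyme BCAT1 or the mitochondrial enzyme BCAT2, and hepatocytes are known for having little of this activity. The mitochondrial branched-chain keto acid dehydrogenase complex then decarboxylates the keto acids irreversibly, and it is switched off when its kinase BCKDK phosphorylates it and switched on again when the phosphatase PPM1K removes the phosphate. Each amino acid afterwards follows its own branch to acetyl-CoA, acetoacetate or propionyl-CoA. Lysine is broken down mainly in liver mitochondria through saccharopine, and its carbon skeleton reaches crotonyl-CoA through glutaryl-CoA.

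The libraries held 20679642 to 25649767 estimated counts each. *Themis* itself was low and did not separate the labels. Its level was 8.07, 25.6 and 12.0 CPM (counts per 1000000 counts of the library, after TMM scaling) in the WT livers and 8.63, 7.74 and 9.97 CPM in the *Themis*-KO livers, so that WT replicate 1 lay inside the *Themis*-KO range (log2 fold change −0.79, SE 0.381, edgeR quasi-likelihood test, adjusted p = 0.199). Which exons the allele removes was not analysed here, so this is no check of the deleted exons. WT replicates 1 and 2 stood apart from the other 4 livers in another way. Of the counts assigned to *Gm28438* or to the mitochondrial gene *mt-Nd3*, 96.6% and 96.8% went to *Gm28438* in these livers, against 2.20% to 3.26% in WT replicate 3 and the 3 *Themis*-KO livers.

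Of the 9 tested genes, 5 fell in the livers labelled *Themis*-KO and none rose. *Dbt*, *Ivd*, *Gcdh*, *Hibadh* and *Bcat2* passed the threshold of an adjusted p of 0.05 in edgeR's quasi-likelihood test, with log2 fold changes between −0.75 and −0.52. Among all 14496 tested genes, 4.14% were called lower and 4.97% higher. The other 4 tested genes (*Aass*, *Mccc1*, *Bckdha* and *Bckdhb*) had log2 fold changes of −0.48, −0.32, −0.28 and −0.17 and did not pass. All 9 fold changes were negative, against 49% of all tested genes, and the median was −0.52 against 0.0095 over all tested genes. Every *Themis*-KO liver lay below every WT liver for 7 of the 9, an arrangement found in 16.9% of all tested genes. Because the genes were chosen with earlier results of these data known, the shares of all genes give scale and are no test of the set. In bulk liver, fewer hepatocytes and less of these RNAs per hepatocyte cannot be told apart.

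The count of 5 depended on which livers were in the fit. Leaving out WT replicate 1 gave 0 calls among the 9, leaving out WT replicate 2 gave 0, and dropping *Themis*-KO replicate 1 or 2 gave 0 each, with 0.216%, 0.384%, 0.0814% and 0.278% of all genes called lower in these 4 edgeR fits. At an unadjusted p under 0.05, they held 5, 6, 5 and 7 of the 9 as lower, against 9.55%, 10.6%, 9.03% and 9.15% of all genes. Leaving out WT replicate 3 gave 4 calls (2.49% of all genes), and leaving out *Themis*-KO replicate 3 gave 6 (13.8%). All 9 fold changes stayed negative in each of the 6 fits. The study calls the livers pairs without saying what was paired. With a block for the replicate number, 0 of the 9 passed, where 0.31% of all genes were called lower. At an unadjusted p under 0.05 in edgeR, the block fit held 7 of the 9 as lower, against 10.3% of all genes. With a term for the split between *Gm28438* and *mt-Nd3* counts, 0 of the 9 passed, where 0.0207% of all genes were called lower. In that fit 5 of the 9 had an unadjusted p under 0.05, against 5.11% of all genes, and the 9 log2 fold changes ran from −0.64 (*Dbt*) to −0.07 (*Bckdhb*). WT replicate 3, the WT liver on the same side of that split as the *Themis*-KO livers, lay above all 3 of them for 8 of the 9 genes. This count rests on 1 liver, repeats the comparison of that fit and includes the 7 genes without overlap given above. The share over all genes was not computed, so it is a description only.

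**Figure D1:**
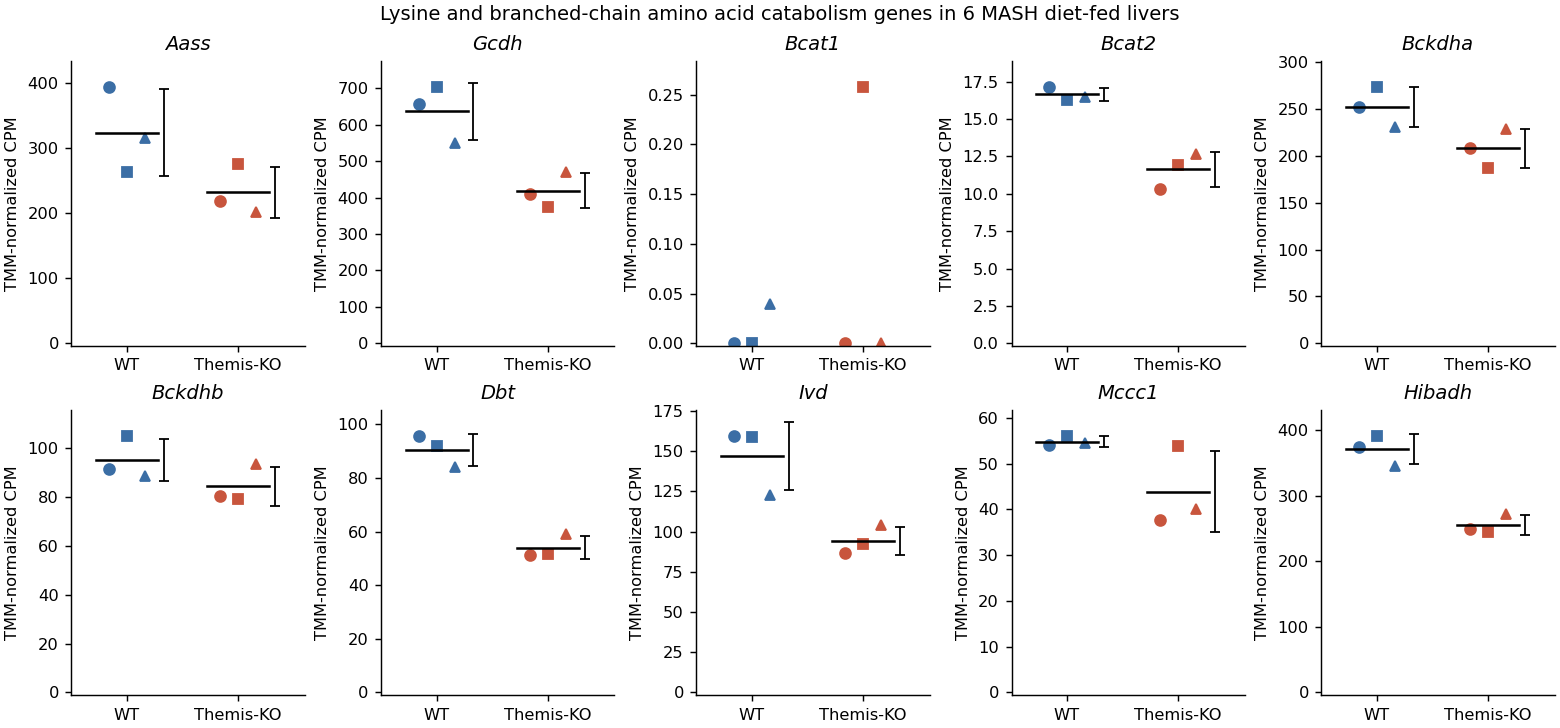
Level of each of the 10 genes in each liver (vertical axes, TMM-normalized CPM), for the WT and *Themis*-KO groups on the horizontal axes. Circles, squares and triangles are replicates 1, 2 and 3, black lines are group means and bars are ± 1 SD (none for *Bcat1*, which had at most 6 counts in a liver). *Dbt* lay between 84.1 and 95.7 CPM in the WT livers and between 51.3 and 59.0 CPM in the *Themis*-KO livers, whereas the groups overlapped for *Aass* and *Bckdhb*.

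Per length of exon, in RPKM (the CPM divided by kilobases of exon), the WT order was *Gcdh* at 294 ± 36.4 (SD, n = 3), *Hibadh* at 203 ± 12.5, *Bckdha* at 133 ± 11.3, *Aass* at 87.5 ± 17.9, *Bckdhb* at 59.0 ± 5.41, *Ivd* at 40.1 ± 5.73, *Dbt* at 27.4 ± 1.80, *Mccc1* at 22.3 ± 0.453 and *Bcat2* at 6.69 ± 0.185, with *Bcat1* last. No neighbouring genes in this WT order overlapped in their 3 values. In the *Themis*-KO livers the order was the same except for *Dbt* and *Mccc1*. There *Mccc1*, at a mean of 17.9 RPKM, stood above *Dbt*, at 16.4 RPKM, with overlapping values, and *Aass* (62.6 RPKM) also overlapped with *Bckdhb* (52.3 RPKM).

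Of the lysine genes, *Gcdh* fell and *Aass* did not pass. *Gcdh* (ENSMUSG00000003809, GRCm38 chr8:84886393-84893921, minus strand) encodes glutaryl-CoA dehydrogenase, which turns glutaryl-CoA from lysine, hydroxylysine and tryptophan into crotonyl-CoA. It was at 657, 705 and 550.3 CPM in the WT livers and at 410.1, 375 and 471 CPM in the *Themis*-KO livers. All 3 *Themis*-KO livers lay below all WT livers, with *Themis*-KO replicate 3 and WT replicate 3 closest to each other. The mean was 65.7% of the WT mean (637 ± 79.0 against 419 ± 48.3 CPM, log2 fold change −0.61, SE 0.128, adjusted p = 0.0351 in edgeR).

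*Aass* (ENSMUSG00000029695, chr6:23072173-23132986, minus strand) encodes the bifunctional synthase that makes saccharopine from lysine and splits it again, the first steps of the pathway. It was at 394, 262 and 315 CPM in the WT livers and at 218, 275 and 201 CPM in the *Themis*-KO livers. The groups overlapped, since *Themis*-KO replicate 2 lay above WT replicate 2. The log2 fold change of −0.48 (SE 0.173) did not pass in edgeR (adjusted p = 0.110), but *Aass* did pass in DESeq2 (adjusted p = 0.0413), where 6 of the genes were called lower and 7.12% of all genes were.

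The promoters of *Gcdh*, *Ivd* and *Hibadh*, 3 of the genes that fell, and of the phosphatase gene *Ppm1k*, the regulator described further on, are shown because these genes moved in the same direction in the same livers. The sequences are the 150 bases before a RefSeq start (GRCm38.p6), or before a GENCODE vM21 start where that lay further upstream. They are written 5′ to 3′ on the gene's strand, at chr8:84893922-84894071 (minus) for *Gcdh*, chr2:118861804-118861953 (plus) for *Ivd*, chr6:52640390-52640539 (minus) for *Hibadh* and chr6:57535488-57535637 (minus) for *Ppm1k*. Capitals mark matches on either strand to the GC box GGGCGG, the CCAAT box CCAAT or the nuclear receptor motif AGGTCA.
Gcdh: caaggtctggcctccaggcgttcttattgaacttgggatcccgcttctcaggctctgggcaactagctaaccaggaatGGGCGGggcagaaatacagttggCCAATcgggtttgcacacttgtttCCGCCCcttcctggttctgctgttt
Ivd: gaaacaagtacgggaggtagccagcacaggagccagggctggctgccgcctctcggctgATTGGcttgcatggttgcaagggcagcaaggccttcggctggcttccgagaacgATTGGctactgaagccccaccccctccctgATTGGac
Hibadh: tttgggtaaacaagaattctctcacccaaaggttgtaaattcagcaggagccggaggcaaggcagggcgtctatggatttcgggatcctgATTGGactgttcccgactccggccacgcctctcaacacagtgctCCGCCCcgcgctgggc
Ppm1k: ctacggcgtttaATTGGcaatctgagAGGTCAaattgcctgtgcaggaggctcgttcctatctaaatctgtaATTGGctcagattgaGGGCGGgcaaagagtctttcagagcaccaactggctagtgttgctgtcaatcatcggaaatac

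Over 26122 promoter windows of this length, 27.8% held the GC box, 25.5% the CCAAT box and 8.73% the nuclear receptor motif on either strand. The *Gcdh* window held 2 GC boxes and 1 CCAAT box, the *Ivd* window held 3 CCAAT boxes, the *Hibadh* window held 1 of each, and the *Ppm1k* window held 1 GC box, 2 CCAAT boxes and 1 nuclear receptor motif. The window of *Bcat2*, which also fell (150 bases, GC content 50.7%), held none of these letters and is not printed, because it overlaps an exon of the opposite-strand gene *0610005C13Rik*. The letters of a TATA box (TATAAA, in 8.08% of all windows), an ETS core (CCGGAA, 8.95%) and an NRF1 site (3.02%) were in none of these windows. The GC content of the 4 printed windows was 54.7%, 62.0%, 57.3% and 47.3% in the same order, against a median of 53.3% over all windows. These are matches of letters and no measure of binding.

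Of the transaminases, *Bcat2* was measured at a low level and *Bcat1* was near the limit of detection. *Bcat1* (ENSMUSG00000030268, chr6:144993835-145076184, minus strand), the cytosolic enzyme, had 0, 0 and 1 counts in the WT livers and 0, 6 and 0 counts in the *Themis*-KO livers. A count of 0 allows up to 3 counts in a library, between 0.118 and 0.144 CPM in these livers, and this covers counting error only. *Bcat1* was therefore not tested in the main fit and no fold change is given. The planned log2 ratio of *Bcat1* to *Bcat2* counts, which rests on these few counts, gave p = 0.5 in an exact two-sided permutation test (0.5 after adjustment).

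*Bcat2* (ENSMUSG00000030826, chr7:45570153-45589711, plus strand), the mitochondrial enzyme, was at 17.2, 16.3 and 16.5 CPM in the WT livers and at 10.3, 11.9 and 12.7 CPM in the *Themis*-KO livers. The groups did not overlap, and the mean fell to 69.9% of the WT mean (log2 fold change −0.52, SE 0.111, adjusted p = 0.0362 in edgeR). It did not pass when libraries were scaled to total counts alone (adjusted p = 0.0609). Exons of *Bcat2* share at least 247 bases with the opposite-strand gene *0610005C13Rik*, which had 16675 counts over the 6 livers against 1919 for *Bcat2*. *0610005C13Rik* was at 159, 185 and 137 CPM in the WT livers and at 75.0, 76.0 and 110.4 CPM in the *Themis*-KO livers and also fell (log2 fold change −0.88, SE 0.176, adjusted p = 0.0314 in edgeR). Whether the counting used strand is not given in the sources used here, and the part of *0610005C13Rik* reads in the *Bcat2* values was not tested.

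The subunits of the branched-chain keto acid dehydrogenase did not move by like amounts. *Dbt* (ENSMUSG00000000340, chr3:116513070-116549981, plus strand) encodes the dihydrolipoyl transacylase that forms the core of the complex. It was at 95.7, 91.8 and 84.1 CPM in the WT livers and at 51.3, 51.7 and 59.0 CPM in the *Themis*-KO livers. The groups were far apart compared with their spread, and *Dbt* had the lowest ratio of the 9 tested genes, 59.7% of the WT mean (90.5 ± 5.94 against 54.0 ± 4.33 CPM, log2 fold change −0.75, SE 0.0933, adjusted p = 0.0117 in edgeR). Its log2 fold change stayed between −0.83 and −0.70 when any liver was left out, with adjusted p-values over 0.05 in 4 of the 6 fits (0.0577 without WT replicate 1, 0.0512 without WT replicate 2, 0.0593 without *Themis*-KO replicate 1 and 0.0635 without *Themis*-KO replicate 2).

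*Bckdha* (ENSMUSG00000060376, chr7:25629946-25658981, minus strand) and *Bckdhb* (ENSMUSG00000032263, chr9:83925145-84124240, plus strand) encode the alpha and beta chains of the decarboxylase. *Bckdha* was at 252, 274 and 231 CPM in the WT livers and at 209, 187 and 228 CPM in the *Themis*-KO livers, which lay just below without overlap. Its log2 fold change of −0.28 (SE 0.108) did not pass (adjusted p = 0.131 in edgeR), although it did without *Themis*-KO replicate 3. *Bckdhb* was at 91.5, 105 and 88.8 CPM in the WT livers and at 80.5, 79.1 and 93.6 CPM in the *Themis*-KO livers. Here *Themis*-KO replicate 3 lay above 2 of the WT livers, and a log2 fold change of −0.17 with an SE of 0.104 did not pass in edgeR (adjusted p = 0.294).

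The log2 ratio of *Bckdha* to *Bckdhb* counts was 1.46, 1.38 and 1.38 in the WT livers and 1.38, 1.24 and 1.29 among the *Themis*-KO livers, with a difference of means of −0.11. An exact permutation test, two-sided, gave p = 0.1, below which 3 livers against 3 cannot go, and 0.15 after adjustment over 3 ratios. The log2 ratio of *Dbt* to *Bckdhb*, a pair chosen after the values had been seen and therefore given as a description, was 0.066, −0.20 and −0.080 in the WT livers. In the *Themis*-KO livers it was −0.65, −0.61 and −0.67. The core subunit was thus lower relative to the beta chain in all 3 *Themis*-KO livers, by 0.57 on the log2 scale in the means.

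Of the enzymes after the complex, *Ivd* and *Hibadh* fell. *Ivd* (ENSMUSG00000027332, chr2:118861954-118882909, plus strand) encodes isovaleryl-CoA dehydrogenase of the leucine branch, whose promoter is printed above. It was at 159, 159 and 123 CPM in the WT livers and at 86.9, 92.1 and 104 CPM in the *Themis*-KO livers. All *Themis*-KO livers were lower, WT replicate 3 being the nearest of the WT livers, and the mean was 64.1% of the WT mean (log2 fold change −0.64, SE 0.126, adjusted p = 0.0305 in edgeR).

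*Hibadh* (ENSMUSG00000029776, chr6:52546228-52640389, minus strand) encodes 3-hydroxyisobutyrate dehydrogenase of the valine branch. It was at 374, 391 and 346 CPM in the WT livers and at 249, 244 and 272 CPM in the *Themis*-KO livers. The gap between the groups was wider than the range within either, and the mean was 68.9% of the WT mean (370 ± 22.8 against 255 ± 14.9 CPM, log2 fold change −0.54, SE 0.0909, adjusted p = 0.0231 in edgeR).

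*Mccc1* (ENSMUSG00000027709, chr3:35959312-36000678, minus strand) encodes the biotin-carrying alpha subunit of methylcrotonoyl-CoA carboxylase, the enzyme after isovaleryl-CoA dehydrogenase. It was at 53.9, 56.0 and 54.4 CPM in the WT livers and at 37.7, 53.9 and 40.0 CPM in the *Themis*-KO livers. *Themis*-KO replicate 2 was level with the lowest WT liver to 3 digits, while the other *Themis*-KO livers were lower. The log2 fold change of −0.32 (SE 0.136) did not pass (adjusted p = 0.157 in edgeR). The opposite-strand gene *Mccc1os*, which shares at least 198 exonic bases with *Mccc1*, had 13 counts in all.

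The genes that set the activity of the complex differed from each other. *Ppm1k* (ENSMUSG00000037826, chr6:57506502-57535468, minus strand), the phosphatase that switches the complex on, was at 93.6, 97.8 and 79.7 CPM in the WT livers. It was at 32.5, 29.2 and 45.4 CPM in the *Themis*-KO livers, 39.5% of the WT mean (log2 fold change −1.34, SE 0.170, adjusted p = 0.0119 in edgeR). The groups did not overlap, and the fold change of *Ppm1k* was larger than that of any of the 9 tested genes. Leaving out WT replicate 1, WT replicate 2 or *Themis*-KO replicate 1 took the adjusted p to 0.0577, 0.0512 and 0.0593 in edgeR. The log2 fold changes in these fits were −1.32, −1.28 and −1.28. With the term for the *Gm28438* split, which rests on WT replicate 3 alone among the WT livers, the log2 fold change was −1.16. *Bckdk* (ENSMUSG00000030802, chr7:127904082-127910221, plus strand), the kinase that switches it off, was at 15.0, 14.3 and 13.1 CPM in the WT livers and at 13.1, 12.9 and 16.2 CPM in the *Themis*-KO livers, with overlapping groups (log2 fold change −0.01, SE 0.127, adjusted p = 0.957 in edgeR).

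The log2 ratio of *Bckdk* to *Ppm1k* counts, which needs no scaling between livers, was −2.63, −2.77 and −2.60 in the WT livers and −1.31, −1.18 and −1.48 in the *Themis*-KO livers. The ratio was higher in each *Themis*-KO liver than in any WT liver. The means differed by 1.34 (p = 0.1 in the same exact test, 0.15 after adjustment), and by 1.27 to 1.42 when any liver was left out. These are RNA levels, and neither phosphorylation nor activity of the complex was measured.

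**Figure D2:**
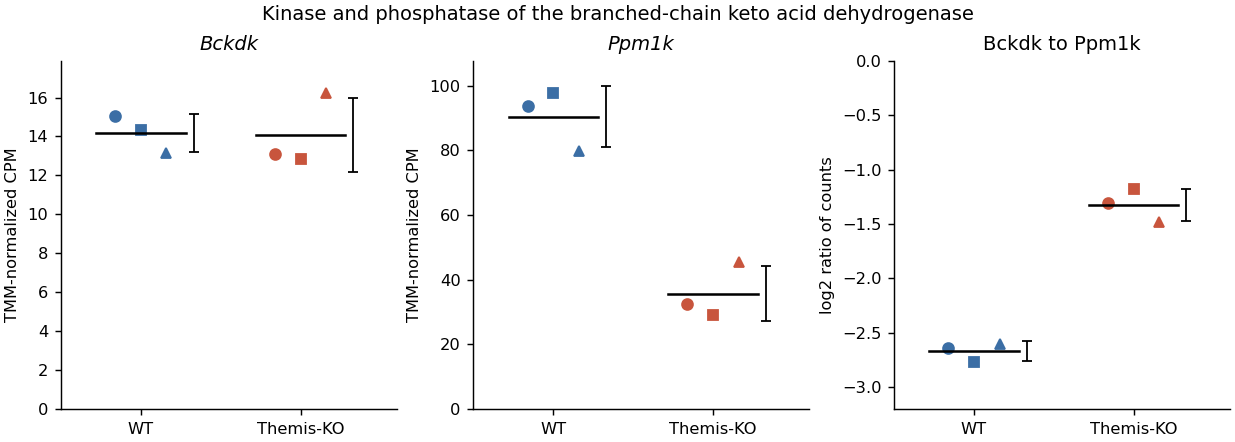
Levels of *Bckdk* and *Ppm1k* (left and middle, vertical axes in TMM-normalized CPM) and the log2 ratio of their counts (right) in the WT and *Themis*-KO livers. Circles, squares and triangles are replicates 1, 2 and 3, black lines are means and bars ± 1 SD. *Bckdk* overlapped between the groups, *Ppm1k* was at 79.7 to 97.8 CPM in WT and at 29.2 to 45.4 CPM in *Themis*-KO livers, and the ratio lay between −2.77 and −2.60 in WT and between −1.48 and −1.18 in *Themis*-KO livers.

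Around the 10 genes, 42 further genes of the same pathways were listed, and all 42 were tested. Of these, 12 fell and 2 rose at an adjusted p of 0.05 (edgeR, with 4.14% and 4.97% of all genes called in these directions), 36 had a negative fold change, and the median log2 fold change was −0.35. The 12 became 1, 2 and 10 on leaving out WT replicates 1, 2 and 3, with 0.216%, 0.384% and 2.49% of all genes called lower. Leaving out *Themis*-KO replicates 1, 2 and 3 gave 0, 2 and 25, with 0.0814%, 0.278% and 13.8% of all genes called lower. In the group of the keto acid complex, its regulation and mitochondrial import, *Ppm1k* was the only one of 6 that passed. In the leucine branch 1 of 3 fell. This was *Mccc2*, the beta subunit of the carboxylase of which *Mccc1* is the alpha subunit, at 94.2, 90.9 and 77.0 CPM in the WT livers and 61.1, 57.6 and 66.3 CPM in the *Themis*-KO livers (log2 fold change −0.50, adjusted p = 0.0336).

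In the isoleucine and valine branches 4 of 7 fell, with a median log2 fold change of −0.55 over the 7. *Acadsb*, the dehydrogenase for short branched-chain acyl-CoA of the isoleucine branch, was at 126, 114 and 107 CPM in the WT livers and at 70.6, 69.1 and 71.5 CPM in the *Themis*-KO livers (log2 fold change −0.72, SE 0.0869, adjusted p = 0.0112 in edgeR). *Hsd17b10*, which acts later in the isoleucine branch, fell by 0.73 on the log2 scale (adjusted p = 0.0221). On either side of *Hibadh* in the valine branch, *Hibch*, which releases 3-hydroxyisobutyrate, went from 95.3, 103 and 90.6 CPM to 58.6, 60.4 and 75.3 CPM (log2 fold change −0.57, adjusted p = 0.0318). *Aldh6a1*, which takes the semialdehyde made by HIBADH to propionyl-CoA, went from 474, 515 and 402 CPM to 302, 300.2 and 346 CPM (log2 fold change −0.55, adjusted p = 0.0351). The 3 consecutive valine enzymes thus had log2 fold changes between −0.57 and −0.54. Before them in the branch, *Acad8* and *Echs1*, named after their values had been seen, moved less. Their log2 fold changes were −0.35 (adjusted p = 0.0656) and −0.34 (adjusted p = 0.128), which did not pass in edgeR.

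Of the 6 genes that take propionyl-CoA to succinyl-CoA, all had negative fold changes and 1 fell. This was *Mmut*, the methylmalonyl-CoA mutase that needs vitamin B12, at 198, 204 and 185 CPM in the WT livers and 139, 138 and 160 CPM in the *Themis*-KO livers (log2 fold change −0.42, adjusted p = 0.0386 in edgeR). The 3 genes that pass electrons from the acyl-CoA dehydrogenases, IVD and GCDH among them, to the respiratory chain did not pass. Their log2 fold changes were −0.33 (*Etfb*), −0.28 (*Etfa*) and −0.24 (*Etfdh*), and each was lower in every *Themis*-KO liver than in every WT liver. That arrangement was found in 16.9% of all tested genes. These 3 genes were named after their values had been seen. An exon of *Etfb* shares 159 bases with *Gm45233* on the same strand, and the part of *Gm45233* reads in the *Etfb* values was not tested. Exons of *Dhtkd1*, *Aldh6a1*, *Mmut* and *Slc43a2* overlap opposite-strand genes, which had 4, 57, 284 and 175 counts in all against 7675, 52647, 23103 and 2222 for the named genes.

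Between *Aass* and *Gcdh*, and in the joined breakdown of pipecolate and hydroxylysine, 4 of 10 genes fell and 9 of 10 fold changes were negative. *Aadat*, the aminoadipate aminotransferase, was at 72.8, 71.9 and 56.4 CPM in the WT livers and 38.7, 39.6 and 45.7 CPM in the *Themis*-KO livers (log2 fold change −0.70, adjusted p = 0.0248 in edgeR). *Dhtkd1*, a subunit of the oxoadipate dehydrogenase that makes glutaryl-CoA for GCDH, went from 77.0, 86.6 and 59.7 CPM to 33.4, 33.2 and 52.9 CPM (log2 fold change −0.90, adjusted p = 0.0417). *Themis*-KO replicate 3 was the highest of its group for both. *Pipox*, the pipecolate oxidase, and *Hykk*, the hydroxylysine kinase, had log2 fold changes of −0.68 (adjusted p = 0.0147) and −0.86 (adjusted p = 0.0373). The gene with a positive value was *Crym* (log2 fold change 0.82, adjusted p = 0.168), named after its value had been seen, which encodes a ketimine reductase that also binds thyroid hormone.

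**Figure D3:**
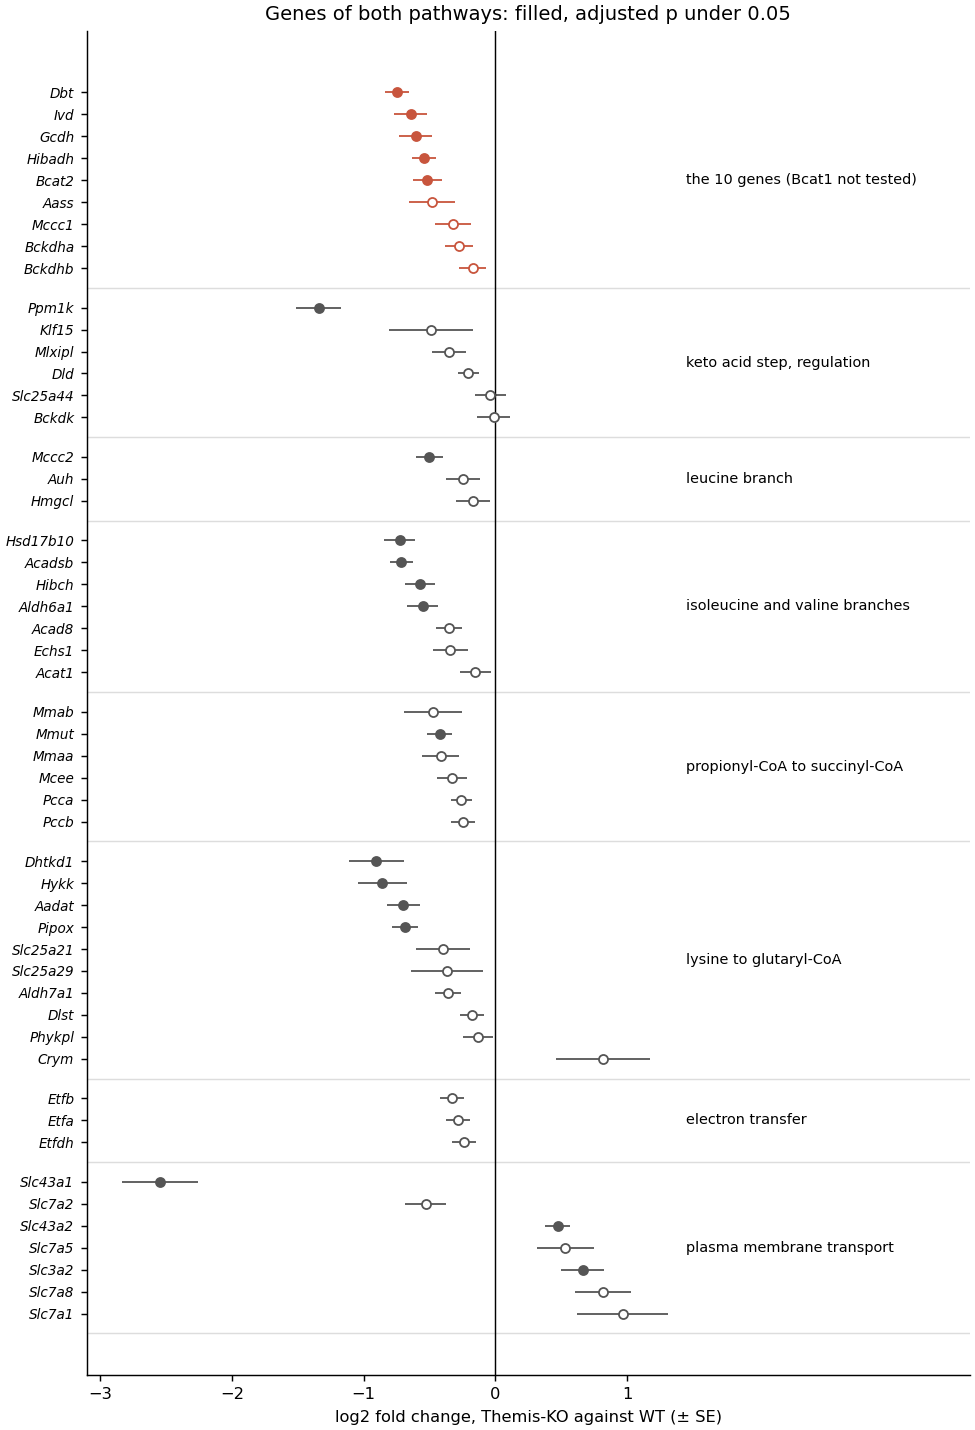
Log2 fold change of *Themis*-KO against WT livers (horizontal axis) with its SE (bars) for the 9 tested genes (red) and the 42 others of the pathways (grey), one gene per line and grouped by step. Filled points had an adjusted p under 0.05 in edgeR's quasi-likelihood test. Outside the transporters, values were negative for every gene but *Crym*, from −1.34 for *Ppm1k* to −0.01 for *Bckdk*, while 5 of the 7 plasma membrane transporters were positive.

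Of 7 plasma membrane transporters of these amino acids, 2 rose, 1 fell and the median log2 fold change was 0.53. A difference between the transporters and the enzymes was not tested. *Slc3a2*, the heavy chain shared by several amino acid exchangers, was at 31.6, 30.8 and 33.8 CPM in the WT livers and rose to 54.6, 59.8 and 37.7 CPM in the *Themis*-KO livers (log2 fold change 0.66, adjusted p = 0.0457 in edgeR). *Slc43a2*, a carrier for large neutral amino acids, rose from 14.0, 12.6 and 14.4 CPM to 18.9, 18.8 and 19.2 CPM (log2 fold change 0.47, adjusted p = 0.0318). *Slc43a1*, its paralog with a like range of substrates, moved the other way.

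*Slc7a2*, a cationic amino acid transporter named after its values had been seen, had a log2 fold change of −0.53 (adjusted p = 0.0701) with every *Themis*-KO liver below every WT liver. *Slc43a1* was at 12.3, 6.77 and 6.51 CPM in the WT livers and at 1.44, 1.46 and 1.46 CPM in the *Themis*-KO livers. It had the most negative log2 fold change of the 51 tested pathway genes, −2.54 (SE 0.288, adjusted p = 0.00936 in edgeR). None of the 42 genes was called higher on leaving out any one of 5 livers, where 0.0543% to 3.24% of all genes were. On leaving out *Themis*-KO replicate 3, 4 were called higher, where 15% of all genes were.

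Within the groups, the same livers tended to be extreme. *Themis*-KO replicate 3 had the highest level in its group for 7 of the 9 tested genes, and for 34 of the 36 other pathway genes with a negative fold change. WT replicate 3 was the lowest WT liver for 6 of the 9 and for 29 of the 36. Over all 7102 tested genes with a negative fold change these shares were 60.2% and 45.6%, so that the order of the livers was not limited to these pathways. Across all tested genes, *Themis*-KO replicate 3 correlated more closely with WT replicates 3 and 2 (Pearson r of log2 CPM 0.987 and 0.984, given as a description over genes of the same libraries) than with *Themis*-KO replicates 1 and 2 (0.980 and 0.982).

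**Figure D4:**
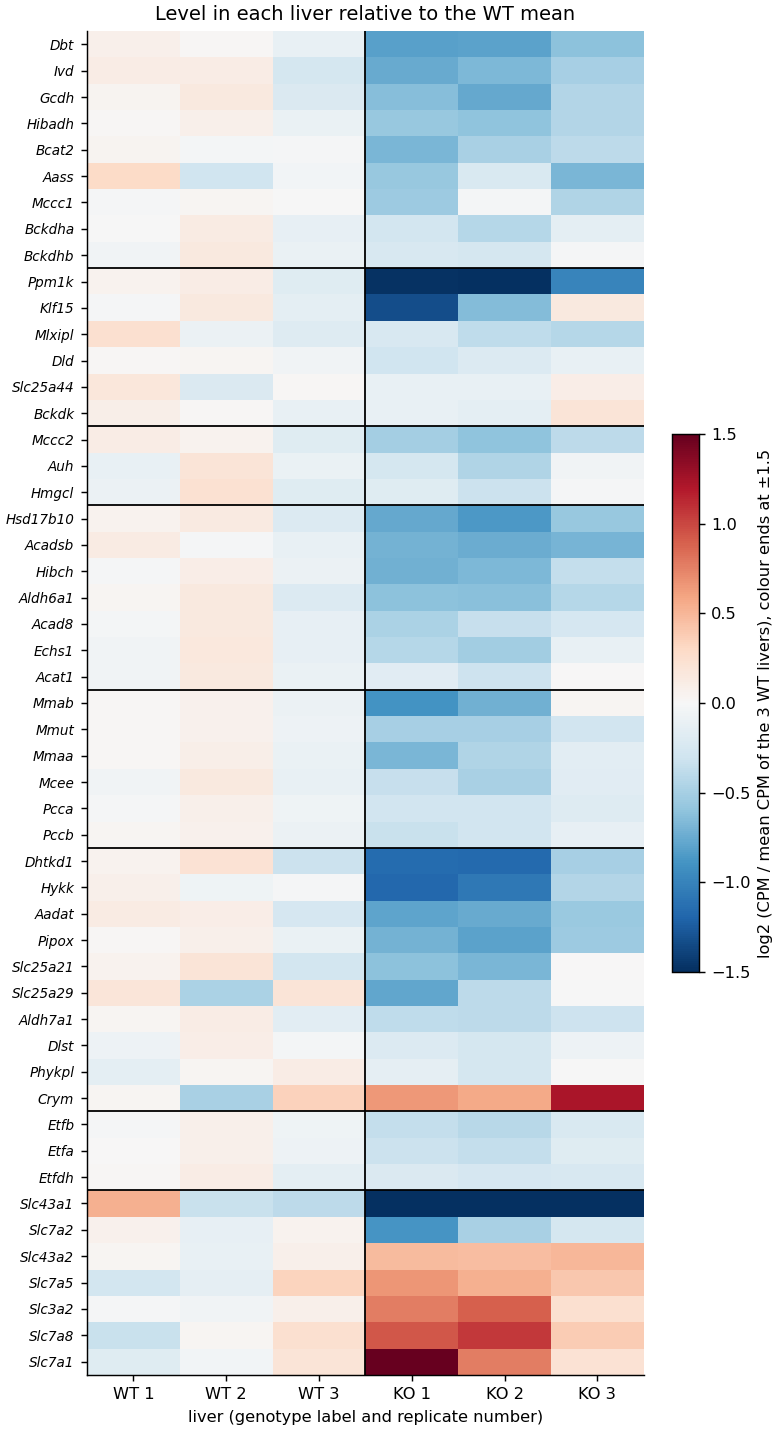
Level of each gene (lines) in each of the 6 livers (columns, WT on the left) as the log2 ratio to the mean of the 3 WT livers, with colours that end at ±1.5. It shows the 9 tested genes and the 42 others of the pathways. *Themis*-KO replicate 3 was the highest of its group for 7 of the 9 and WT replicate 3 the lowest of its group for 6 of the 9.

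Some markers of liver cell types also differed between the groups, where 4.14% of all tested genes were called lower and 4.97% higher. Of 11 measured hepatocyte markers, which defined the labelled tissue and were abundant in every liver, 2 fell and 10 had a negative fold change, with a median log2 fold change of −0.29. Their summed level was 71026 to 78545 CPM in the WT livers and 58689 to 61169 CPM in the *Themis*-KO livers. *Alb* alone made up most of these sums (39776 to 43023 CPM in WT and 33597 to 37327 CPM in *Themis*-KO livers). It did not pass (adjusted p = 0.185 in edgeR). The 2 that fell were *Cyp2e1* (log2 fold change −1.07, adjusted p = 0.0304) and *Ass1* (−0.49, adjusted p = 0.0480), a cytochrome P450 and a urea cycle enzyme. Of 11 hepatic stellate cell markers 6 rose, with sums of 452 to 516 CPM in WT and 688 to 739 CPM in *Themis*-KO livers.

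Of 9 cholangiocyte markers 1 rose, with sums of 174 to 216 CPM in WT and 406 to 638 CPM in *Themis*-KO livers. The gene that rose was *Spp1*, which other liver cells can also express and which made up most of these sums (137 to 180 CPM in WT and 366 to 571 CPM in *Themis*-KO livers). The other 8 summed to 35.9 to 38.0 CPM in WT and to 67.8, 38.6 and 45.4 CPM in *Themis*-KO livers. Of 12 macrophage markers 3 rose, with overlapping sums of 433 to 752 CPM and 750 to 964 CPM. Of the other lists, 1 of 8 endothelial and 1 of 4 proliferation markers rose, 1 of 5 tested T cell markers fell, and none of 5 B cell or 3 tested neutrophil markers passed. With 4.14% of all genes called lower and 4.97% higher, 1 call in so short a list is not read as a change of the cell type. No marker of any list was at 3 counts or less in all livers.

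When the libraries were scaled to the hepatocyte markers in place of all genes, a setting chosen after the data had been seen, the median log2 fold change of all tested genes moved to 0.37. Then 1 of the 9 genes was called lower (*Dbt*, log2 fold change −0.38, adjusted p = 0.0474 in edgeR), where 1.37% of all genes were called lower and 35.9% higher. *Bckdha*, *Bckdhb* and *Mccc1* turned to positive values of 0.088, 0.19 and 0.03, none of which passed, and the other 5 stayed negative without passing. *Ppm1k* still fell, by 0.97 on the log2 scale (adjusted p = 0.00739), and so did *Acadsb* and *Slc43a1*. This scaling takes the hepatocyte markers as unchanged on average, and the part of cell composition in the results was not tested further.

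**Figure D5:**
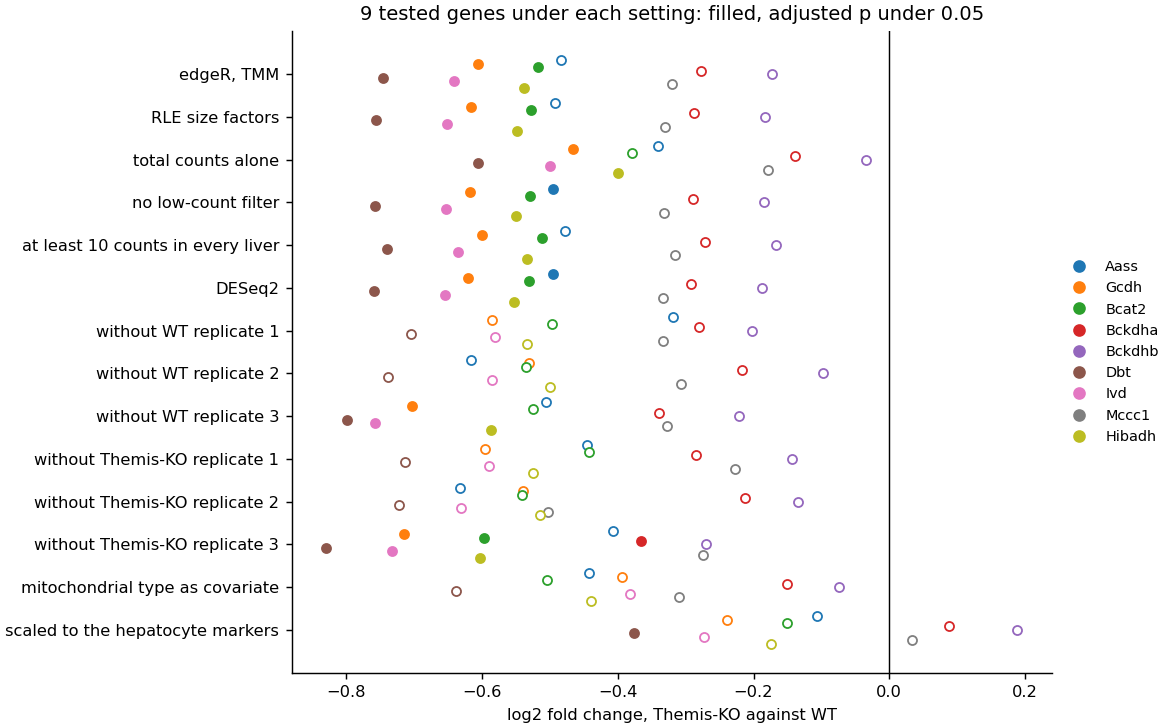
Log2 fold change of the 9 tested genes (colours) in *Themis*-KO against WT livers (horizontal axis) under each of 14 settings (lines), with filled points for an adjusted p under 0.05 and open points otherwise. All 9 were negative under each setting shown except the scaling to hepatocyte markers, where *Bckdha*, *Bckdhb* and *Mccc1* were positive. *Dbt* was the most negative throughout, between −0.83 without *Themis*-KO replicate 3 and −0.38 under the scaling to hepatocyte markers.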

How the data were processed

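RNA-seq libraries of 6 livers (3 labelled WT, 3 labelled *Themis*-KO) were analysed. Per the submitters' processing notes and the study's methods, reads were trimmed with cutadapt 2.3, aligned with STAR 2.7.8a to GRCm38 and summed per gene with RSEM 1.3.3. The values the authors deposited are estimated counts per gene, already whole numbers, with no normalization. The strand setting of the counting is not given in the sources used here. All sample columns were used.

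Genes were filtered with filterByExpr (10907 removed), scaled by TMM and tested with edgeR 4.0.16 (glmQLFit, glmQLFTest, R 4.3.3), WT against *Themis*-KO, with Benjamini-Hochberg adjustment over all 14496 genes and a threshold of 0.05. SEs are those of the fitted log2 fold changes. CPM and RPKM were computed from the counts, with exon lengths and coordinates from the basic annotation of GENCODE vM21, matched for 25321 genes. For log2 ratios, 0.5 was added to each count. Depth of 20679642 to 25649767 counts leaves low genes such as *Bcat1* with too few counts to test. Promoters came from RefSeq, which had an entry for 9 of the 10 genes, with the start moved to a GENCODE vM21 start lying further upstream. The scripts were tested on simulated data.

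The members, the gene lists and the tests were chosen with earlier results of these data known. The text names all 10 genes, *Themis*, *Bckdk*, *Ppm1k* and each further pathway gene with an adjusted p under 0.05, others being marked as named afterwards. The labels give the livers as separate samples. The study speaks of pairs of WT and *Themis*-KO livers without saying what makes a pair, and gives the mice of this diet cohort as male but liver samples for expression analysis as of both sexes. What the replicates share is therefore not known, and p-values measure the spread between these samples. DESeq2 1.42.0, other size factors and filters, a replicate block, each liver left out and a term for the *Gm28438* split were alternatives, and the scaling to hepatocyte markers was added after the data had been seen.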

Additional observations from a re-analysis of the deposited data

How the results depend on the processing

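Of the single-gene values of the 9 tested genes over the alternatives, 84 kept their direction and side of the threshold, 36 kept the direction and lost the call, 3 gained a call and 3 turned sign. All 36 lost calls were of the 5 genes called lower in the main fit. The count of 5 genes called lower was 5 or 6 with RLE size factors, with stricter or no filtering of low counts and with DESeq2, and 4 with total counts alone, where 78.9% of all calls were higher against 54.6% and the median log2 fold change of all genes was 0.15. Leaving out one liver gave 0 to 6 of the 9 lower and 0 to 25 lower and 0 to 4 higher of the 42 others. In these fits 0.0814% to 13.8% of all genes were called lower and 0.0543% to 15% higher. The term for the *Gm28438* split left WT replicate 3 alone against the *Themis*-KO livers, so its counts are not given. The scaling to hepatocyte markers, chosen after the data had been seen, gave 1 of the 9 and 3 of the 42 lower. It gave 6 of the 42 higher, where 1.37% of all genes were called lower and 35.9% higher. The values that turned sign under it were 0.088 (*Bckdha*), 0.19 (*Bckdhb*) and 0.034 (*Mccc1*). The causes were not tested.

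The study calls the livers pairs without saying what was paired or whether the numbers mark it. Same-numbered WT and *Themis*-KO livers did not deviate together (correlations of deviations 0.010, −0.31 and −0.18), so the numbers were not taken as pairs. With a replicate block the counts were 0 of the 9 lower (7 at an unadjusted p under 0.05; 0.31% of all genes called lower), 1 of the 42 lower (*Slc43a1*) and 0 higher. In these deviations, no liver correlated best with the liver of its own number. With 3 livers a group, the exact tests of ratios cannot go below p = 0.1.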
